A study of Homo sapiens with 8 samples.

Results

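The addition of the LSD1 inhibitor TCP to MV4-11 cells already under the CDK4/6 inhibitor palbociclib was followed by RNA-seq, by comparing 2 libraries of the combination with 2 libraries of palbociclib alone. These are 4 of the 8 libraries of the series. The comparison covered all 14151 genes, of 26364 listed, that reached at least 1 TPM (a level scaled to gene length and to the total of the library) in at least 2 of the 8 libraries. Palbociclib was used at 0.5 μM, the combination held palbociclib at 0.5 μM and TCP at 5 μM, and the other 4 libraries came from cells given DMSO (control) or TCP at 5 μM without palbociclib, with 2 libraries in each group. The labels place all libraries at day 4. By the study's methods, treatments in culture began with the CDK6 inhibitor for 1 day, after which both molecules were present for 3 days. MV4-11 is a human acute myeloid leukemia (AML) cell line whose genotype, shared by all 4 groups, is FLT3-ITD and MLL-AF4, so every value comes from 1 line. The labels do not say that the replicates were separate cultures, and p-values then measure only the spread between these libraries.

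LSD1 (KDM1A) is a histone demethylase that removes methyl groups from lysine residues of histone H3 at enhancers and promoters. It acts in the CoREST complex together with histone deacetylases, and in blood progenitors the repressor GFI1 brings the complex to genes of mature myeloid cells. TCP, tranylcypromine, blocks its enzymatic site covalently. Palbociclib blocks the kinases CDK4 and CDK6, which release cells from G1 into S phase, and myeloid cells usually leave the cell cycle as they mature into monocytes or granulocytes. Monocytes are known by secreted alarmins of the S100 family, the lipopolysaccharide coreceptor CD14, pattern recognition receptors, leukocyte immunoglobulin-like receptors (LILR) and MHC class II, whereas promyelocytes fill their azurophilic granules with serine proteases.

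The 8 libraries each held between 13320 and 13640 genes at or above 1 TPM. Within a group the log2 levels of the 2 libraries correlated across genes with r between 0.983 and 0.991. All 6 markers of the AML line (PTPRC, CD33, SPI1, FLT3, HOXA9, MEIS1) exceeded 1 TPM in every library. The study's methods place its AML cell lines on human HS-5 stromal cells, and 1 library stood apart for stromal genes. The 16 stromal markers, collagens among them, summed to 185 TPM in palbociclib replicate 2 against 37.6 TPM in palbociclib replicate 1, to 53.6 and 72.5 TPM with the combination, and to between 26.0 and 45.2 TPM in the 4 libraries without palbociclib. COL1A1 reached 22.2 TPM in palbociclib replicate 2 and at most 3.78 TPM elsewhere, while POSTN was listed at 0 in all 8 libraries. Both combination libraries thus lay below palbociclib replicate 2 in the summed stromal level and above palbociclib replicate 1. The part of stromal RNA in the results was not tested beyond leaving that library out. Erythroid markers summed to at most 17.0 TPM and megakaryocyte markers to at most 8.09 TPM. B cell markers summed to at most 9.59 TPM, and among the T and NK cell markers NKG7, which myeloid cells also express, made up nearly the whole sum of 171 to 312 TPM while CD3E, CD3G and CD2 were listed at 0 in every library.

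Adding TCP to palbociclib raised 65 genes and lowered 6. These 71 differentially expressed genes (DEG; absolute log2 fold change of at least 1 on log2(TPM + 1) and limma adjusted p below 0.01) were 0.502% of the genes tested, with 0.459% higher and 0.0424% lower. In every one of the 71 genes both combination libraries lay beyond both palbociclib libraries, a separation that 16.6% of all tested genes showed upward and 37.2% downward. The 71 were called on the difference between these same libraries, so their separation is a description and not support for the calls. The raised genes changed by a median log2 fold change of 1.72 (range 1.06 to 5.75) and the lowered genes by a median of -1.24. A further 28 genes, 14 in each direction, passed the adjusted p at a smaller fold, among them CD74 (log2 fold change 0.81), LILRB4 (0.94) and the kinase LYN (0.55) upward and CDK1 (-0.81), ELANE (-0.79) and CDT1 (-0.78) downward. At a limma adjusted p below 0.05 and any fold size, a threshold added after the data were seen, 494 genes differed (3.49%), 290 of them higher (2.05%) and 204 lower (1.44%), and 2472 genes had an unadjusted p below 0.05 (17.5%). In bulk RNA a change in the share of cells that express a gene and a change in its level per cell cannot be told apart.

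The number of calls depended on the spread estimate. With the replicate number as a block, since same-numbered libraries deviated together, 114 genes were called (0.806%), 102 higher (0.721%) and 12 lower (0.0848%), and all 71 DEG were among them. Leaving out any 1 of the 4 compared libraries left a single DEG, VCAN, with the lone library of the group assumed to vary like the other groups. All 71 kept their sign there, and between 20 and 55 of them kept a limma adjusted p below 0.05, 55 without palbociclib replicate 2. Without control replicate 1 or 2 there were 20 and 24 calls, and without TCP replicate 1 or 2 there were 50 and 41. With only the 4 compared libraries in the fit there were 10 calls, all upward.

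**Figure D1:**
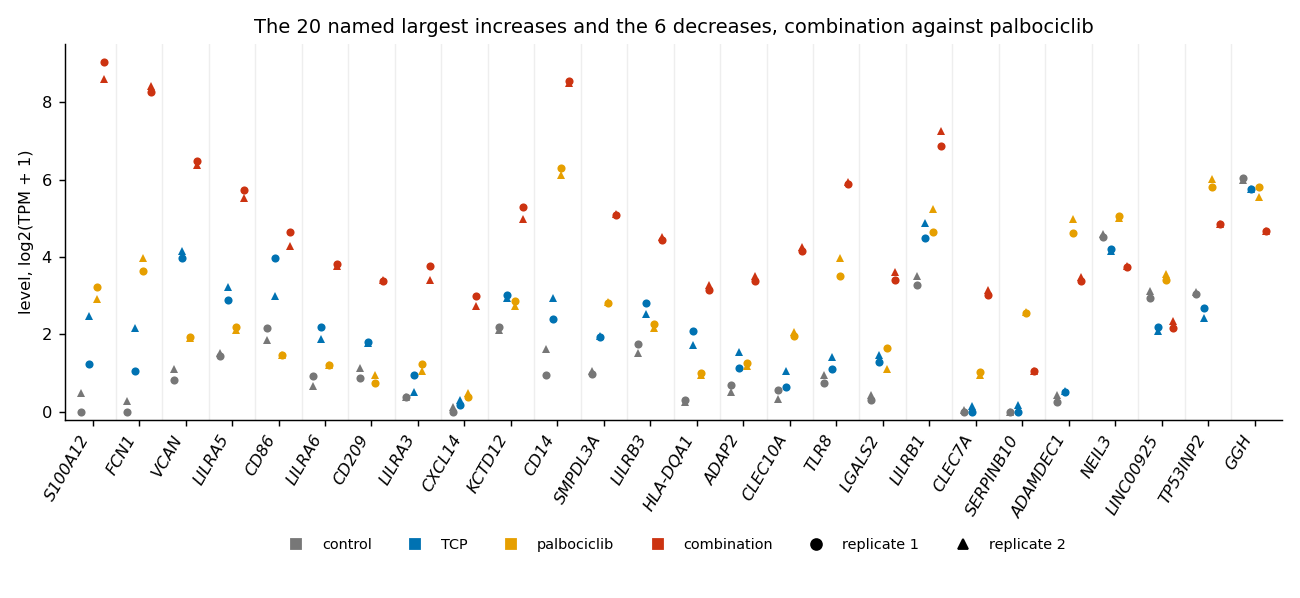
Level on the log2(TPM + 1) scale (y axis) of the 20 named largest increases and the 6 decreases (x axis) in each of the 8 libraries, 1 point per library. The combination libraries of S100A12 lie at 527 and 386 TPM against 8.39 and 6.56 TPM with palbociclib. In all 26 genes the points of both groups are separate, which was a condition for naming the 20 increases.

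The largest rises were in secreted proteins of monocytes and neutrophils. S100A12, a calcium-binding alarmin of neutrophils and monocytes (chr1:153346187-153348097, GRCh37, minus strand), lay at 8.39 and 6.56 TPM with palbociclib and 527 and 386 TPM with the combination. Its level was 61.1-fold higher on the mean TPM (log2 fold change 5.75 ± 0.39 (SE), limma adjusted p = 0.00199), against 0 and 0.411 TPM in control and 1.37 and 4.53 TPM with TCP alone. The combination was the only group in which the gene passed 10 TPM. S100A9, which forms calprotectin with S100A8 and lies beside S100A12 on chromosome 1 (chr1:153330330-153333499), measured 1820.0 and 1578 TPM with palbociclib and 7343 and 5756 TPM with the combination (log2 fold change 1.94 ± 0.20 (SE), limma adjusted p = 0.00649). S100A8 measured 889.9 and 772 TPM with palbociclib and 4434 and 3357 TPM with the combination, a 4.69-fold difference that missed the DEG threshold (log2 fold change 2.22 ± 0.40 (SE), limma adjusted p = 0.0353). S100A8 and S100A9 together made up 0.271% and 0.235% of all TPM with palbociclib and 1.18% and 0.911% with the combination.

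FCN1, the ficolin of monocytes that opens the lectin pathway of complement (chr9:137795078-137809758), rose from 11.5 and 14.8 TPM to 306 and 339.7 TPM (log2 fold change 4.52 ± 0.33 (SE), limma adjusted p = 0.00236). VCAN, versican, a matrix proteoglycan that classical monocytes also make (chr5:82767437-82878122), rose from 2.86 and 2.79 TPM to 88.4 and 81.8 TPM (log2 fold change 4.49 ± 0.13 (SE), limma adjusted p = 7.66e-05), the lowest adjusted p of the comparison. VCAN is also made by stromal cells, and the part of stromal RNA in its level was not tested. CD14 (chr5:140011313-140013285) rose from 77 and 68 TPM to 374 and 359 TPM (log2 fold change 2.32 ± 0.24 (SE), limma adjusted p = 0.00717). CTSS, a cathepsin that trims the class II invariant chain, rose from 43.9 and 37.5 TPM to 120.1 and 95.4 TPM (log2 fold change 1.38 ± 0.16 (SE), limma adjusted p = 0.00923). Of the 16 listed monocyte effector genes, 13 were tested, 6 rose (0.459% of all genes tested were DEG upward) and none fell. The 13 had a median log2 fold change of 1.38 against -0.073 over all genes tested. LYZ, lysozyme, was already the most abundant of them with palbociclib, at 16431 and 18984 TPM, and measured 26591 and 28617 TPM with the combination (log2 fold change 0.64 ± 0.52 (SE), limma adjusted p = 0.586).

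Receptors for microbial patterns formed a second group. TLR8, an endosomal sensor of single-stranded RNA (chrX:12924739-12941288, plus strand), measured 10.5 and 14.7 TPM with palbociclib and 57.9 and 59.8 TPM with the combination (log2 fold change 2.16 ± 0.19 (SE), limma adjusted p = 0.0041). CLEC7A, Dectin-1, the receptor of fungal beta-glucan, measured 1.06 and 0.939 TPM with palbociclib and 7.18 and 7.83 TPM with the combination and at most 0.111 TPM in the 4 libraries without palbociclib (log2 fold change 2.09 ± 0.17 (SE), limma adjusted p = 0.00313). FPR1, which senses formylated bacterial peptides, rose from 21.2 and 18.6 TPM to 74.2 and 54.7 TPM (log2 fold change 1.63 ± 0.18 (SE), limma adjusted p = 0.0076). C5AR1, the receptor of the complement fragment C5a, rose from 0.571 and 0.392 TPM to 5.39 and 4.6 TPM (log2 fold change 2.02 ± 0.23 (SE), limma adjusted p = 0.00813). In all 4 genes the combination libraries lay above every other library. The C-type lectins CD209 (DC-SIGN, 0.674 and 0.943 TPM to 9.41 and 9.58 TPM, log2 fold change 2.54) and CLEC10A (2.89 and 3.2 TPM to 16.9 and 18 TPM, log2 fold change 2.19) rose as well, as did NLRC4, an inflammasome sensor of bacterial flagellin and secretion systems (log2 fold change 1.37).

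The list of innate sensing and phagocytic receptors held 24 tested members, of which 4 were DEG upward (0.459% of all genes tested) and none downward. The median log2 fold change of the list was 0.83. Its largest change missed the threshold at a larger standard error than the called genes of the list. FCGR2B, the inhibitory Fc receptor for IgG, measured 4.71 and 3.2 TPM with palbociclib and 41.5 and 41.2 TPM with the combination (log2 fold change 3.11 ± 0.39 (SE), limma adjusted p = 0.012; adjusted p = 0.00416 in limma with the replicate block, which calls it). LY96, the MD-2 partner of TLR4, measured 11.7 and 4.64 TPM with palbociclib and 55.5 and 33.3 TPM with the combination, and its limma adjusted p was 0.0598 without and 0.00186 with the block. CLEC5A, a DAP12-coupled lectin, measured 2.15 and 6.8 TPM with palbociclib and 15.1 and 35 TPM with the combination and was called in neither fit (limma adjusted p = 0.0577 and 0.0171).

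Promoters of 50 of the 65 raised genes could be matched by symbol in RefSeq, and of 10447 of the 14151 tested genes. The 250 bases before each annotated start were searched on both strands for the letters TTGCNNAA, a short form of the site of C/EBP factors, which drive myeloid maturation, and AAATCAC, the core of the site of GFI1, the repressor that brings LSD1 to chromatin. The C/EBP letters were in 7 of the 50 raised promoters (14.0%) and in 6.09% of all tested promoters. The GFI1 letters were in 3 of 50 (6.0%) and in 1.66% of all. The core GAGGAAGT of the PU.1 (SPI1) site was in 0 of 50 and in 2.32% of all. A match is a description of letters only. The promoters of 5 of the 7 raised genes with the C/EBP letters are shown, among them the 3 that also held the GFI1 letters. Capitals mark the C/EBP letters and, in S100A12, TLR8 and FAM65B, also the GFI1 letters, as they read on the strand of the gene (GRCh38.p14, RefSeq).
S100A12, chr1:153375622-153375871, minus strand: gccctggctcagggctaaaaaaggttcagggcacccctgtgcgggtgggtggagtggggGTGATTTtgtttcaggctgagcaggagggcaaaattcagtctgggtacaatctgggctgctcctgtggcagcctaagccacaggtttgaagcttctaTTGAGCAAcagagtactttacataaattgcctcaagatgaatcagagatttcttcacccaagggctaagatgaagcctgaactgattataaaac
TLR8, chrX:12906370-12906619, plus strand: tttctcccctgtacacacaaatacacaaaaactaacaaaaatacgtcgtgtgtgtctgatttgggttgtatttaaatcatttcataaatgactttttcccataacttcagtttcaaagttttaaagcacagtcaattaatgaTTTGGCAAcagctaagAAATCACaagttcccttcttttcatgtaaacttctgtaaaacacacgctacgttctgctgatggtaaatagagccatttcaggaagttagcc
FAM65B, chr6:24935961-24936210, minus strand: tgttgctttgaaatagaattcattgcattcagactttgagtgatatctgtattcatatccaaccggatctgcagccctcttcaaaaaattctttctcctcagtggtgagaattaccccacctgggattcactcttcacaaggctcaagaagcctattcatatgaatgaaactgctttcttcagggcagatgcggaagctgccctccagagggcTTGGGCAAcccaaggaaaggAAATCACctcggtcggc
LILRA5, chr19:54313167-54313416, minus strand: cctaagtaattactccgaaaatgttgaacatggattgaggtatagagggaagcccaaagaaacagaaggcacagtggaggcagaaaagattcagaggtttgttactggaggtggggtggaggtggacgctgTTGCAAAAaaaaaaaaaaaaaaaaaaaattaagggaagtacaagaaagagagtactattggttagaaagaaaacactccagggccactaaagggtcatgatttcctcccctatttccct
MS4A4A, chr11:60280416-60280665, plus strand: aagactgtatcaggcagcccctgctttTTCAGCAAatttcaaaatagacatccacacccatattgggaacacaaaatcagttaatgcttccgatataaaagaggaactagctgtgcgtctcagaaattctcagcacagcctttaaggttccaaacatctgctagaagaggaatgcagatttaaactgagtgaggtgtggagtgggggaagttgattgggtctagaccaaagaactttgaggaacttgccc

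In S100A12 the C/EBP letters lay at -94 to -87 and the GFI1 letters at -191 to -185 from the annotated start, each in reverse orientation. In TLR8 they lay at -108 to -101 and -92 to -86, and in FAM65B, an inhibitor of the small GTPase RhoA, at -37 to -30 and -17 to -11. FAM65B rose from 1.06 and 0.786 TPM to 6.4 and 5.19 TPM (log2 fold change 1.82 ± 0.19 (SE), limma adjusted p = 0.00729), and at most 0.321 TPM was measured without palbociclib.

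Of the LILR genes on chromosome 19, 5 DEG lay within chr19:54720147-55149473 (GRCh37), an interval that also holds LILRA1 and LILRA2, which were not called (limma adjusted p = 0.0362 and 0.0555). LILRA5, an activating receptor that couples to the Fc receptor gamma chain (chr19:54818353-54824436), measured 3.57 and 3.34 TPM with palbociclib and 52 and 44.6 TPM with the combination (log2 fold change 3.46 ± 0.15 (SE), limma adjusted p = 0.000491). LILRB1, an inhibitory receptor for MHC class I (chr19:55128612-55149473), measured 23.8 and 36.7 TPM with palbociclib and 115 and 151 TPM with the combination (log2 fold change 2.11 ± 0.24 (SE), limma adjusted p = 0.00813). Both also stood higher with TCP alone than in control, with 1.73 and 1.9 TPM in control and 6.42 and 8.37 TPM with TCP alone for LILRA5 and 8.78 and 10.4 TPM in control and 21.5 and 28.3 TPM with TCP alone for LILRB1. The inhibitory receptors LILRB2 (log2 fold change 1.93) and LILRB3 (2.26) and the activating LILRA6 (2.58) were DEG too. Outside the fixed list, LILRA3, a secreted member for which no position was matched, rose from 1.34 and 1.08 TPM to 12.7 and 9.54 TPM (log2 fold change 2.44 ± 0.21 (SE), limma adjusted p = 0.0041). LILRB3 and LILRA6 are near-identical over their extracellular part and LILRA3 resembles its neighbours, so that reads may have been split between them and their separate values are uncertain.

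Over the 17 tested LILR, Siglec and SIRPA genes the median log2 fold change was 0.96, and 16 had a positive sign (34.5% of all genes tested). Of the list 5 were DEG upward (0.459% of all) and 7 with the block (0.721% of all). LILRA1 (29.3 and 40.01 TPM against 69.2 and 86.8 TPM, limma adjusted p = 0.0362) and SIGLEC9 (2.39 and 5.39 TPM against 11.7 and 18.5 TPM, limma adjusted p = 0.0358) were the 2 added by the block, with adjusted p = 0.00135 and 0.00883 in limma. SIGLEC1, the sialoadhesin of interferon-treated macrophages, measured 5.57 and 18.3 TPM with palbociclib and 20.8 and 31.7 TPM with the combination, and the levels of its replicates lay far apart (limma adjusted p = 0.451).

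Genes of antigen presentation were higher. Of 12 tested MHC class II and costimulatory genes all had a positive log2 fold change with a median of 1.33, 5 were DEG (7 with the block), and 9 had a limma adjusted p below 0.05 (8 without any 1 control or TCP library, 4 without palbociclib replicate 1, 3 without palbociclib replicate 2 and 1 without either combination library). Over all genes tested, 34.5% had a positive sign, 0.459% were DEG upward (0.721% with the block) and 2.05% had a limma adjusted p below 0.05 upward. Both combination libraries lay above both palbociclib libraries in 12 of 12, where 16.6% of all genes did. CD86, the ligand of CD28 on antigen-presenting cells (chr3:121774209-121839986), measured 1.8 and 1.78 TPM with palbociclib and 24 and 18.4 TPM with the combination (log2 fold change 2.98 ± 0.31 (SE), limma adjusted p = 0.00706). HLA-DQA1 measured 1.001 and 0.925 TPM with palbociclib and 7.83 and 8.71 TPM with the combination (log2 fold change 2.24 ± 0.17 (SE), limma adjusted p = 0.00265). HLA-DRA measured 7.51 and 5.42 TPM with palbociclib and 26.5 and 23.3 TPM with the combination (log2 fold change 1.81 ± 0.16 (SE), limma adjusted p = 0.0041). HLA-DRB1 and HLA-DPA1 rose by log2 fold changes of 1.56 and 1.54. In each of these genes the combination libraries stood above all 6 others, although in control the level of CD86 was 3.5 and 2.62 TPM and above that with palbociclib. HLA-DRB5 (log2 fold change 1.57 ± 0.20 (SE), limma adjusted p = 0.0122, and adjusted p = 0.00878 in limma with the block, which calls it) shares long stretches with HLA-DRB1, and the 2 could not be separated with certainty. CIITA, the transactivator of class II genes, measured 2.73 and 1.45 TPM with palbociclib and 5.85 and 5.35 TPM with the combination (log2 fold change 1.12 ± 0.21 (SE), limma adjusted p = 0.0365), below its control values of 3.88 and 4.54 TPM with palbociclib and above them with the combination. HLA-DQB1 was called with the block alone (limma adjusted p = 0.012 and 0.00922). With TCP alone the list had a median of 0.89 against control, and 5 members had a limma adjusted p below 0.05 upward, against 0.29% of all genes.

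The next 3 genes lie outside that list and were chosen after their values were seen. IFI30, the lysosomal thiol reductase that opens disulphide bonds of antigens, rose from 209.6 and 208 TPM to 817 and 796 TPM (log2 fold change 1.95 ± 0.092 (SE), limma adjusted p = 0.000501). CD74, the invariant chain, measured 487 and 464 TPM with palbociclib and 877 and 796 TPM with the combination, and its adjusted p passed at a fold below the threshold (log2 fold change 0.81 ± 0.083 (SE), limma adjusted p = 0.00656). CTSH, a lysosomal aminopeptidase, rose from 1.8 and 2.95 TPM to 9.82 and 13.5 TPM (log2 fold change 1.91 ± 0.21 (SE), limma adjusted p = 0.00813). The letters CTNATTGG of the Y box, the CCAAT element of class II promoters bound by NF-Y, stood in 5 of the 9 matched promoters of the list (55.6%) and in 9.1% of all tested promoters. The Y box is a known element of class II promoters, so its share in this list is a description. Of the 50 matched promoters of raised genes, 7 held these letters (14.0%). The letters are shown in capitals for HLA-DRB1 at -49 to -42 and HLA-DQA1 at -71 to -64 (GRCh38.p14, RefSeq, strand of the gene). They serve as the reference of the class II genes that rose.
HLA-DRB1, chr6:32589849-32590098, minus strand: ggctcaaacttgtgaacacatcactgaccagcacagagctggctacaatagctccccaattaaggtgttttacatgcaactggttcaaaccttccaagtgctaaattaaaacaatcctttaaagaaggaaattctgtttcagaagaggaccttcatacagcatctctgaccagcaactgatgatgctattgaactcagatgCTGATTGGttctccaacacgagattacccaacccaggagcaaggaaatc
HLA-DQA1, chr6:32637156-32637405, plus strand: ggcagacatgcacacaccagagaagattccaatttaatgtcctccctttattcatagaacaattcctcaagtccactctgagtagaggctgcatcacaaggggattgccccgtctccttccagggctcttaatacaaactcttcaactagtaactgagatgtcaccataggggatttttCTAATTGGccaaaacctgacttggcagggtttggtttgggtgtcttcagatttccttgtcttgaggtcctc

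CSF1R, the receptor of M-CSF that monocytes need to survive (chr5:149432854-149492935), measured 36.4 and 37.9 TPM with palbociclib and 86.9 and 90.7 TPM with the combination (log2 fold change 1.24 ± 0.075 (SE), limma adjusted p = 0.0015) against 14.6 and 14.7 TPM in control and 21.2 and 20.9 TPM with TCP alone. It was the only DEG among 13 tested cytokine and growth factor receptors (median log2 fold change 0.15). CSF3R, the G-CSF receptor of granulocytes, measured 346 and 343 TPM with palbociclib and 287 and 277 TPM with the combination (log2 fold change -0.29 ± 0.12 (SE), limma adjusted p = 0.288). MS4A4A, a membrane protein of monocytes and macrophages (chr11:59953130-60085553), measured 30.8 and 20.8 TPM with palbociclib and 100.4 and 93.2 TPM with the combination (log2 fold change 1.89 ± 0.19 (SE), limma adjusted p = 0.0064). CCR2, the receptor that draws monocytes to CCL2, measured 69.9 and 73.8 TPM with palbociclib and 226 and 255 TPM with the combination (limma adjusted p = 0.0176, and 0.00381 with the block, which calls it). CCL2 itself measured 120.0 and 199 TPM with palbociclib and 336 and 498 TPM with the combination (log2 fold change 1.40 ± 0.27 (SE), limma adjusted p = 0.0412).

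CXCL14, a chemokine, rose from 0.313 and 0.413 TPM to 7.003 and 5.67 TPM (log2 fold change 2.42 ± 0.19 (SE), limma adjusted p = 0.00265) and reached at most 0.238 TPM in the 4 libraries without palbociclib. CX3CR1, the fractalkine receptor of patrolling monocytes, measured 12 and 20.7 TPM with palbociclib and 39.2 and 49 TPM with the combination and was called with the block alone (limma adjusted p = 0.0488 and 0.00903). Over the 20 tested chemokine and cytokine genes no member was a DEG. Their median was 0.15, but 1 library decides its sign, since it was -0.21 without palbociclib replicate 1, 0.62 without palbociclib replicate 2 and -0.10 without combination replicate 2. Among 15 adhesion molecules none was a DEG, while quantile normalization called 2, and the block and the fit without TCP replicate 1 called 1 each. ITGAM, which encodes CD11b, a surface marker that the study followed by flow cytometry, measured 1.91 and 1.8 TPM with palbociclib and 13.3 and 11 TPM with the combination, a 6.57-fold difference (log2 fold change 2.20 ± 0.31 (SE), limma adjusted p = 0.0157, and adjusted p = 0.00417 in limma with the block, which calls it). ITGAX, CD11c, measured 8.79 and 9.55 TPM with palbociclib and 20.03 and 24.8 TPM with the combination (log2 fold change 1.20 ± 0.44 (SE), limma adjusted p = 0.229).

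Other raised genes had metabolic, cytoskeletal or signalling roles. KCTD12, an auxiliary subunit of GABA-B receptors, rose 5.81-fold (log2 fold change 2.35 ± 0.13 (SE), limma adjusted p = 0.00119), and SMPDL3A, a phosphodiesterase of the sphingomyelinase family, 5.42-fold (log2 fold change 2.26 ± 0.11 (SE), limma adjusted p = 0.000501). LGALS2, a galectin, and ADAP2, a GTPase-activating protein of ARF6, rose by log2 fold changes of 2.14 and 2.23. CTSB, cathepsin B, was the only DEG among 15 lysosomal and lipid handling genes, at 241 and 270.0 TPM with palbociclib and 539 and 527 TPM with the combination (log2 fold change 1.06 ± 0.10 (SE), limma adjusted p = 0.00558). Abundant genes chosen after their values were seen included VIM, vimentin, which measured 288 and 364 TPM with palbociclib and 834 and 859 TPM with the combination (log2 fold change 1.38 ± 0.12 (SE), limma adjusted p = 0.0041). HK2, the hexokinase of glycolysis, measured 67.2 and 72 TPM with palbociclib and 154 and 153 TPM with the combination (log2 fold change 1.13 ± 0.078 (SE), limma adjusted p = 0.00202). Vimentin is abundant in stromal cells too. Also outside the naming rule are HK2, IFI30, CTSH, NLRC4, MIR146A, FAM65B, GPR65, RBM47, SGSH, PLEKHO1, LILRB4, LYN, CDT1, RRM2, SPI1, CEBPA, CEBPB, ANXA2 and ANXA2P2. ANXA2, annexin A2, rose by 1.37, and its processed pseudogene ANXA2P2, whose reads cannot be told from those of the parent with certainty, by 1.47. Of the 65 raised genes 30 had a mean below 5 TPM with palbociclib, 10 of them below 1 TPM, and 6 had a mean above 100 TPM. Further raised genes, also named after their values were seen, in falling order of their log2 fold change, were PKIB, GNG2, CECR1, PRKAR2B, CMKLR1, SULF2, SLC16A6, CNR2, MYCL, KCTD6, KIAA0513, MPZL1, ACVRL1, PC, FILIP1L, RNF130, OSBPL11, SLAMF7, GPR85 and NT5DC2, from 1.92 for PKIB to 1.20 for NT5DC2. Among them are the chemerin receptor CMKLR1, the pyruvate carboxylase PC and the activin-like receptor ACVRL1.

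The entry MIR146A, the gene of a microRNA that dampens signalling from Toll-like receptors to NF-kB, measured 6.24 and 7.2 TPM with palbociclib and 22 and 26.9 TPM with the combination (log2 fold change 1.72 ± 0.16 (SE), limma adjusted p = 0.00502) against 3.68 and 4.83 TPM in control and 5.17 and 4.73 TPM with TCP alone. The libraries were made from polyadenylated RNA, so the mature microRNA was not measured. These reads may be of the precursor transcript, but their origin was not tested. Another microRNA entry, MIR6087, had the highest TPM in all 8 libraries, so the levels of such short entries are uncertain. Its mature 5′ arm is shown for reference, from RefSeq (GRCh38.p14, chr5:160485372-160485393, plus strand), with the seed, bases 2 to 8, in capitals.
hsa-miR-146a-5p: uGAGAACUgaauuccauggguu

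Of the 6 lowered genes, 5 had a higher mean with palbociclib than in control, as did 50 of the 65 raised genes. The palbociclib libraries also enter the choice of these genes, so the counts are a description. ADAMDEC1, a metalloprotease-like protein of macrophages, measured 0.1995 and 0.353 TPM in control and 0.42 and 0.449 TPM with TCP alone, and 23.8 and 30.7 TPM with palbociclib and 9.33 and 10.2 TPM with the combination (log2 fold change -1.38 ± 0.16 (SE), limma adjusted p = 0.00883). SERPINB10, a serpin of bone marrow cells chosen after its values were seen, was at most 0.131 TPM without palbociclib and measured 4.83 and 5.03 TPM with palbociclib and 1.09 and 1.07 TPM with the combination (log2 fold change -1.51 ± 0.17 (SE), limma adjusted p = 0.00813). Both genes kept a level above control with the combination. NEIL3, a DNA glycosylase active during replication (chr4:178231028-178284090), fell from 32 and 31.2 TPM to 12.5 and 12.5 TPM, below its control level of 21.9 and 23.2 TPM (log2 fold change -1.27 ± 0.082 (SE), limma adjusted p = 0.00153). GGH, gamma-glutamyl hydrolase of folate metabolism, fell from 55.1 and 45.5 TPM to 24.4 and 24.5 TPM (log2 fold change -1.01 ± 0.10 (SE), limma adjusted p = 0.00644). TP53INP2, which takes part in autophagy, and the long noncoding RNA LINC00925 fell by 1.05 and 1.22 on the log2 scale.

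Most tested genes of granule proteins were lower with the combination. In 8 of the 10 tested both combination libraries lay below both palbociclib libraries, where 37.2% of all genes did. CTSG, cathepsin G (chr14:25042724-25045456), measured 76.1 and 49.9 TPM in control and 22.6 and 13.1 TPM with TCP alone, and 51 and 65 TPM with palbociclib and 9.77 and 13.5 TPM with the combination (log2 fold change -2.23 ± 0.30, limma adjusted p = 0.0148). PRTN3, proteinase 3, measured 971 and 831 TPM in control and 419 and 417 TPM with TCP alone, and 4401 and 3798 TPM with palbociclib and 2534 and 1918 TPM with the combination (log2 fold change -0.89 ± 0.15, limma adjusted p = 0.0287). RNASE3, the eosinophil cationic protein, measured 171 and 154 TPM with palbociclib and 86.9 and 82.8 TPM with the combination (log2 fold change -0.93 ± 0.15, limma adjusted p = 0.0287). In PRTN3 and RNASE3 the levels with palbociclib were the highest of the 4 groups and those with the combination lay between palbociclib and control. CTSG instead ended below control.

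Of the 20 listed granule genes 10 were tested, none was a DEG, 9 had a negative sign, and 6 had a limma adjusted p below 0.05, all downward, against 1.44% of all genes. The other 3 of these 6, named after their values were seen, were RNASE2 (log2 fold change -0.89, 1309.8 and 1199 TPM against 698 and 654 TPM), ELANE, neutrophil elastase (-0.79, 1802 and 1907 TPM against 1115 and 1034 TPM), and AZU1, azurocidin (-0.53, 3394 and 3535 TPM against 2308 and 2478 TPM). MPO, myeloperoxidase, was tested too and was not among the 6. The median of the list was -0.66, and the exception in sign was MMP9 of the gelatinase granules (3.17 and 2.01 TPM against 12.2 and 5.57 TPM, limma adjusted p = 0.185). With TCP alone the median was -0.80 against control, and 4 members had a limma adjusted p below 0.05 downward, against 0.141% of all genes. Leaving out any of the 4 compared libraries left none of the 6 below an adjusted p of 0.05, with 9 of 10 signs still negative, and 3 were below it without either control library.

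**Figure D2:**
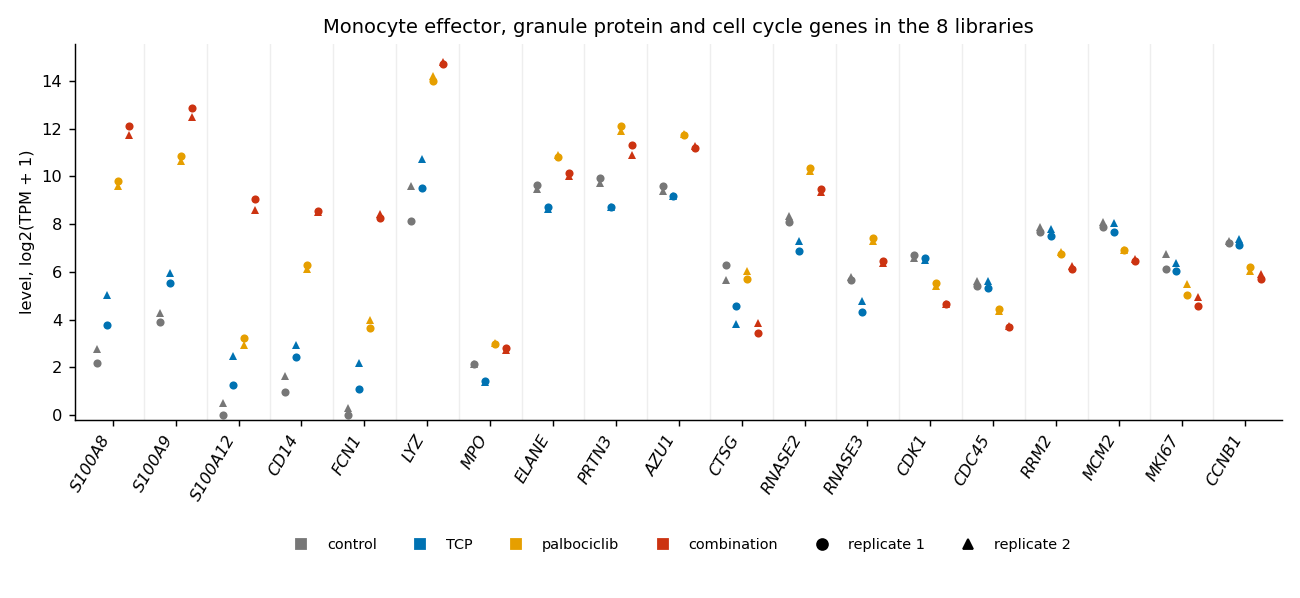
Level on the log2(TPM + 1) scale (y axis) of monocyte effector genes, granule protein genes and cell cycle genes (x axis) in each of the 8 libraries, 1 point per library. The combination points lie above the palbociclib points in S100A8, S100A9, S100A12, CD14, FCN1 and LYZ. They lie below them from ELANE to CCNB1, the last gene, with CTSG at 9.77 and 13.5 TPM and CDK1 at 24.2 and 24.2 TPM. MPO, drawn between LYZ and ELANE, is not part of that range.

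Genes of S and G2/M phase, whose products drive replication and mitosis, were lower with the combination than with palbociclib. All 30 tested members had both combination libraries below both palbociclib libraries, where 37.2% of all genes did, and the median log2 fold change was -0.46. None was a DEG, since none changed by a log2 fold change of 1. Downward, 8 had a limma adjusted p below 0.05, where 1.44% of all genes did. With the block 20 did, where 5.08% of all genes did. CDK1, the kinase of mitotic entry (chr10:62538089-62554610), measured 103 and 94.9 TPM in control and 95.6 and 89.1 TPM with TCP alone, and 45.7 and 40.9 TPM with palbociclib and 24.2 and 24.2 TPM with the combination (log2 fold change -0.81 ± 0.089, limma adjusted p = 0.00789). CDC45, part of the replicative helicase, measured 20.5 and 19.3 TPM with palbociclib and 11.9 and 12.3 TPM with the combination (log2 fold change -0.68, limma adjusted p = 0.0339). RRM2, the small subunit of ribonucleotide reductase, measured 107 and 113 TPM with palbociclib and 67.6 and 75 TPM with the combination (log2 fold change -0.62, limma adjusted p = 0.0474). TTK, a spindle checkpoint kinase, measured 35.8 and 31.1 TPM with palbociclib and 20.4 and 20.1 TPM with the combination (log2 fold change -0.69, limma adjusted p = 0.0145). All 30 signs stayed negative under each alternative, but the count at an adjusted p below 0.05 ranged from 0 to 12 when 1 library was left out, with 0 without palbociclib replicate 1 or either combination library, 2 without either control library, 3 without palbociclib replicate 2, 12 without TCP replicate 1 and 11 without TCP replicate 2. It was 3 under median-ratio scaling. Without palbociclib, TCP gave a median of -0.099 in the same genes, with 5 of 30 below in both libraries, where 22.3% of all genes were.

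Genes of G1 control moved less, with a median of -0.18 over 20 members and no DEG. The palbociclib targets CDK4 (116 and 109.7 TPM with palbociclib and 89.1 and 93.6 TPM with the combination) and CDK6 (131 and 132 TPM with palbociclib and 107 and 100.4 TPM with the combination) had log2 fold changes of -0.30 and -0.34, and their limma adjusted p were 0.181 and 0.156. CDK2, the kinase of S phase entry, measured 49.4 and 44.5 TPM with palbociclib and 31.7 and 30.2 TPM with the combination (log2 fold change -0.58 ± 0.13 (SE), limma adjusted p = 0.06002). CDKN2A, which encodes p16 and ARF and was chosen after its values were seen, measured 54.9 and 54.4 TPM with palbociclib and 41.5 and 40.4 TPM with the combination (log2 fold change -0.41, limma adjusted p = 0.0308). It was the only member with an adjusted p below 0.05, where the block gave 4 and both quantile normalization and median-ratio scaling gave 0.

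The same addition of TCP was measured without palbociclib, in 4 libraries that enter no mean of the main comparison, though its estimate of the spread takes them in. There 8 genes were DEG, 0.0565% of those tested, all higher, and with the block 20 (0.141%). At a limma adjusted p below 0.05 and any fold size there were 61 (0.431%). Leaving out any 1 of the 8 libraries left at most 1 call there. Every one of the 65 genes raised on top of palbociclib had a positive log2 fold change with TCP alone, where 38.4% of all genes did. In 61 of them both TCP libraries lay above both controls, where 12.4% of all genes did. Some signs rest on overlapping levels near 0. C5AR1 measured 0.623 and 0.286 TPM in control and 0.711 and 0.267 TPM with TCP alone, and CLEC7A 0 and 0.034 TPM against 0 and 0.111 TPM. Of the 65, 19 had a limma adjusted p below 0.05 upward in that comparison, against 0.29% of all genes, and 5 were DEG there: VCAN, IFI30, GPR65, RBM47 and SGSH. With the block 9 of the 65 were called there, the added genes being LILRB1, MS4A4A, VIM and PLEKHO1. VCAN measured 0.783 and 1.16 TPM in control and 14.7 and 17 TPM with TCP alone (log2 fold change 3.10, limma adjusted p = 0.00101). GPR65, a proton-sensing receptor, measured 3.95 and 3.64 TPM in control and 13.3 and 12.3 TPM with TCP alone, and 3.41 and 3.74 TPM with palbociclib and 13.8 and 12.3 TPM with the combination, log2 steps of 1.53 and 1.62.

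The steps were of unequal size. The 65 genes changed by a median of 0.77 without and 1.72 with palbociclib, and 62 of them by more with palbociclib, with a median difference of 0.93 on the log2 scale, where 44.3% of all genes had a positive difference. These genes were chosen by the step with palbociclib, which enters the difference, so the count is a description. Of the 65, 50 had a higher mean with palbociclib than in control. The pseudocount of 1 TPM shrinks a step from a lower level more, so the 62 and the 0.93 also depend on the scale. S100A12 had log2 steps of 1.61 and 5.75, FCN1 of 1.47 and 4.52, and TLR8 of 0.41 and 2.16. On the mean TPM, FCN1 went from 0.112 in control to 2.28 with TCP alone, and from 13.2 with palbociclib to 323 with the combination. The pseudocount of 1 TPM makes steps of such low genes too small, and its part in the unequal steps was not tested. CLEC7A and C5AR1 differed from control by 0.052 and 0.027 with TCP alone. The 3 exceptions were RBM47, an RNA-binding protein (3.24 and 3.96 TPM in control and 19.8 and 21.8 TPM with TCP alone, log2 step 2.25 against 1.52), SGSH, a lysosomal sulphatase (1.48 against 1.16), and PLEKHO1 (1.33 against 1.31). The test of the difference itself, the interaction in limma, gave 0 DEG and no adjusted p below 0.172 over 14151 genes, while 904 genes had an unadjusted p below 0.05 (6.39%), 405 of them positive (2.86%) and 499 negative (3.53%). With the block it gave 0 DEG and 1604 genes at an unadjusted p below 0.05 (11.3%). A larger effect of TCP under palbociclib was therefore not shown for any single gene in this test.

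**Figure D3:**
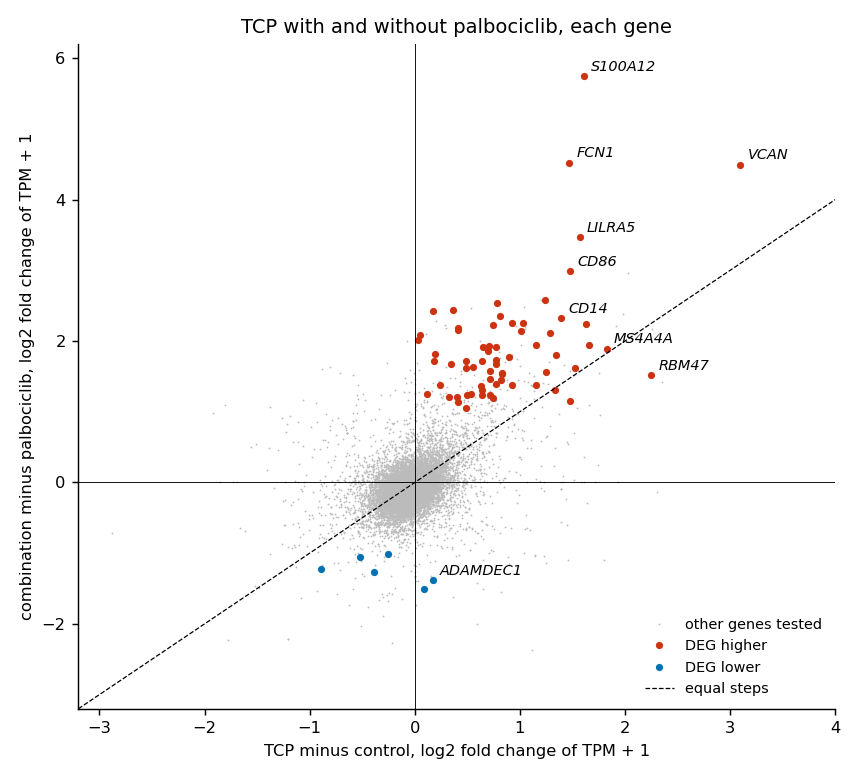
Log2 fold change of TPM + 1 for TCP against control (x axis) and for the combination against palbociclib (y axis), 1 point per gene over 14151 genes, with the 65 higher DEG in red, the 6 lower in blue and the dashed line at equal steps. All 65 red points lie right of 0 and 62 of them above the line. The pseudocount of 1 TPM makes steps of low genes too small on both axes. RBM47 lies below it.

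A list of 8 downstream targets of LSD1 was chosen in the study on these samples, so their direction here is not independent evidence. The study measured S100A12, CYBB, KCTD12, IL10RA and MS4A4A by RT-qPCR. CD31 (PECAM1), CD82 and CXCR4 were measured there as protein by flow cytometry, with the combination, TCP and control. The values here are RNA, against palbociclib, so measure and comparison differ for those proteins. Of the 8, 3 rose (S100A12, KCTD12 and MS4A4A) and none fell, where 0.459% of all genes were DEG upward. The macrophage interleukin-10 receptor chain IL10RA measured 40.2 and 55.3 TPM with palbociclib and 90.5 and 108 TPM with the combination (log2 fold change 1.05 ± 0.17 (SE), limma adjusted p = 0.0249). CYBB, the catalytic subunit of the phagocyte oxidase, measured 156 and 204 TPM with palbociclib and 305 and 329.8 TPM with the combination (log2 fold change 0.83 ± 0.48 (SE), limma adjusted p = 0.433). PECAM1 measured 111 and 123 TPM with palbociclib and 152 and 163 TPM with the combination (log2 fold change 0.42 ± 0.11 (SE), limma adjusted p = 0.105). CXCR4 (373 and 389 TPM with palbociclib and 377 and 379 TPM with the combination) and CD82 (169 and 221 TPM with palbociclib and 133 and 181 TPM with the combination) had log2 fold changes of -0.01 and -0.31 with overlapping groups. CD82 was lower in both same-numbered pairs, and its limma adjusted p was 0.616 without and 0.0489 with the block. KDM1A, the target of TCP, measured 47.4 and 42.5 TPM with palbociclib and 47.5 and 45.6 TPM with the combination (log2 fold change 0.051 ± 0.084 (SE), limma adjusted p = 0.809) against 79.6 and 85 TPM in control and 83 and 79.6 TPM with TCP alone. Over the 14 tested genes of LSD1, its CoREST complex and the GFI1 factors the log2 fold changes lay between -0.30 and 0.31 and none had a limma adjusted p below 0.05.

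Transcription factors of the myeloid lineage held no DEG among 23 tested members, with a median of 0.088. IRF5, an interferon regulatory factor named after its values were seen, measured 34.5 and 34.2 TPM with palbociclib and 52.4 and 52.6 TPM with the combination (log2 fold change 0.60 ± 0.084 (SE), limma adjusted p = 0.0166). KLF4, which takes part in monocyte maturation, measured 12.2 and 15.6 TPM with palbociclib and 31.5 and 30.5 TPM with the combination (log2 fold change 1.11 ± 0.25 (SE), limma adjusted p = 0.0638). The abundant lineage factors SPI1 (409.8 and 464 TPM with palbociclib and 437 and 497 TPM with the combination), CEBPA (343 and 317 TPM with palbociclib and 278 and 254 TPM with the combination) and CEBPB (154 and 166 TPM with palbociclib and 185 and 185 TPM with the combination) had log2 fold changes of 0.096, -0.31 and 0.21, and their limma adjusted p were 0.788, 0.284 and 0.183. Among 14 progenitor genes none was a DEG. SOX4 measured 14.1 and 12.9 TPM with palbociclib and 22.9 and 21.8 TPM with the combination (log2 fold change 0.69 ± 0.097 (SE), limma adjusted p = 0.0164). MYB measured 450.3 and 395 TPM with palbociclib and 317 and 300.4 TPM with the combination (log2 fold change -0.45 ± 0.11 (SE), limma adjusted p = 0.0906).

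No DEG was found in the remaining lists. The 22 interferon-stimulated genes had a median of 0.50 with palbociclib (0.16 without palbociclib replicate 1) and of -0.54 without it, and none reached an unadjusted interaction p below 0.05. IFIT1 shows their spread, with 61.6 and 22.3 TPM in control and 42.5 and 5.45 TPM with TCP alone, and 2.59 and 3.92 TPM with palbociclib and 6.81 and 7.39 TPM with the combination (log2 fold change 0.95 ± 0.84 (SE), limma adjusted p = 0.624). The 18 iron and lipid peroxidation genes had a median of 0.15. NQO1, a quinone reductase, measured 18.5 and 25.9 TPM with palbociclib and 40.6 and 56.6 TPM with the combination, and was called with the block (limma adjusted p = 0.113 and 0.00177). FTH1, the ferritin heavy chain, chosen after its values were seen, measured 2924 and 3933 TPM with palbociclib and 5212 and 5996 TPM with the combination (log2 fold change 0.72 ± 0.14 (SE), limma adjusted p = 0.0464). The medians were 0.24 over 6 NADPH oxidase subunits, -0.13 over 19 amino acid stress genes and -0.02 over 17 genes of the BCL2 family and caspases, where the log2 fold changes lay between -0.40 and 0.18 and the median was 0.0099 without combination replicate 2. None of the latter 2 lists held a gene with a limma adjusted p below 0.05.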

How the data were processed

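RNA-seq was made from MV4-11 cells in 4 groups of 2 libraries: control, TCP, palbociclib and the combination. Per the labels and the study's methods, the authors aligned reads to hg19 (GRCh37) with Subread, counted them per gene with featureCounts 1.6.4 and deposited TPM. The submitters' processing notes also name SAMtools 1.9 and DESeq2 1.26.0. The gene annotation, gene lengths and strand setting are not given in the sources used here, so overlapping and antisense genes may share reads. Each library sums to 1000000 TPM, which hides its depth, and the number of reads behind a value is unknown. A rise in an abundant gene lowers the TPM of the others.

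The test, on genes that 2 or more of 8 libraries held at 1 TPM or above, was limma 3.58.1 (R 4.3.3) on log2(TPM + 1) with 1 coefficient for each group, a mean-variance trend and Benjamini-Hochberg adjustment over all 14151 genes, with 4 residual degrees of freedom. DEG were called at an adjusted p below 0.01 and a log2 fold change of 1 or more in size. The pseudocount of 1 TPM makes fold changes of low genes too small. A two-sided exact permutation test of a single gene could not give less than p = 0.333 in this design. The procedure was also run on simulated data. The simulated noise was independent between libraries, so that run did not cover shared deviations of same-numbered libraries. Groups came from the labels.

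Samples with the same replicate number deviated together from their group means, with correlations across genes of 0.169 to 0.491 in the 6 pairs of groups. This pairing is a hint from the data, since the labels give the numbers alone. Fits with the replicate block are given where they change a call.

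Named genes were the 20 largest increases and up to 10 largest decreases among DEG whose groups did not overlap and whose higher group averaged 5 TPM or more, each DEG of a list, up to 4 further members of each list by size of change, the 8 LSD1 targets, KDM1A, CDK4 and CDK6, and the 5 genes lowest in interaction p. Some genes are not reported here. Members and lists were chosen with earlier results of these data known. Alternatives were another pseudocount, 2 other filters, 2 scalings, the replicate block, only the groups compared, no trend, another adjusted p and each library left out. Gene positions are from GENCODE (GRCh37), promoters and the microRNA from RefSeq (GRCh38.p14).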

Additional observations from a re-analysis of the deposited data

Results flagged for a closer look

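Among 169 named genes, 5 had libraries that moved one way when TCP was added to palbociclib and the other way when it was added without. Other tested genes were not searched for such moves, so no share over all genes is given. For the 5, the difference itself was tested in limma as an interaction. None passed an adjusted p of 0.05, with or without the replicate block. For MNDA, a nuclear antigen of myeloid cells, the log2 fold change was 0.61 with palbociclib and -0.68 without, a difference of 1.29 (limma adjusted p = 0.172). For CEBPB, a transcription factor of monocytes, the log2 fold change was 0.21 with palbociclib and -0.49 without, a difference of 0.71 (limma adjusted p = 0.200). For SLC11A1, a metal transporter of phagosomes, the log2 fold change was 0.88 with palbociclib and -0.42 without, a difference of 1.29 (limma adjusted p = 0.299). For EGR2, an early growth response factor, the log2 fold change was 0.90 with palbociclib and -0.37 without, a difference of 1.27 (limma adjusted p = 0.645). For ADAMDEC1, the metalloprotease-like protein of macrophages, the log2 fold change was -1.38 with palbociclib and 0.17 without, a difference of -1.56 (limma adjusted p = 0.200).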

How the results depend on the processing

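All 71 DEG that were tested kept their sign under every alternative. For the combination against palbociclib, 71 DEG (65 higher, 6 lower) became 42 (40 and 2) with a pseudocount of 0.1 TPM, 38 (34 and 4) with no filter, 10 (10 and 0) with only the groups compared, 183 (158 and 25) at an adjusted p below 0.05, and 494 (290 and 204) at that p with any fold size, which was added after the data were seen. The replicate block gave 114 (102 and 12), and 130 (122 and 8) with quantile normalization. Leaving out 1 library gave 1 to 50 DEG, 1 to 47 higher and 0 to 3 lower. For TCP against control, 8 DEG became 3 with quantile normalization, 2 with median-ratio scaling, 20 with the block and 20 with the block and quantile normalization, 0 with only the groups compared, 36 at an adjusted p below 0.05, 61 at any fold size, and 0 to 1 without a library. The interaction gave 7 DEG with no filter, all microRNA genes, and 0 otherwise. Each of the 7 was above 0 TPM in 1 group alone, at 1.09 to 3.12 TPM. They passed the filter of the main fit too, where none was called. The cause of these moves was not tested. Of 3183 log2 fold changes of 169 named genes under 19 alternatives, 2500 kept direction and side of the threshold, 592 fell short of it, 86 newly passed it and 5 reversed, all near 0: CXCR4 with median-ratio scaling (0.059) and without palbociclib replicate 2 (range over libraries left out -0.040 to 0.020), KDM1A without palbociclib replicate 2 (-0.025 to 0.13), NCF4 without combination replicate 1 (-0.22 to 0.045) and PMAIP1 without palbociclib replicate 1 (-0.44 to 0.020). Median-ratio scaling moved the median over all genes from -0.073 to -0.0100. Beyond the genes and counts given with both fits, the block called LY96 and PRTN3 for TCP against control and changed no other DEG call of a gene named in the text. Depth is unknown, so genes of few TPM carry an unmeasured counting error.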
